A study of Mus musculus with 6 samples.

Results

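The genes described here are 8 markers of the primed epiblast, namely Otx2, Pou3f1, Zic2, Tead2, Fgf5, Fgf15, Sfrp2 and Car14. Each was taken by name, through array probe sets (groups of probes summarised into 1 value) that the platform annotation assigns to that symbol alone. All 8 genes had such a probe set, exactly 1 each, out of 19938 genes measured. The values come from mouse embryonic stem cells of a Dicer Fx/Fx line, whose Dicer alleles can be deleted by tamoxifen. The tamoxifen group (3 arrays) had Dicer deleted by 3 days of tamoxifen and was collected 2 days later, on day 5. The untreated group (3 arrays) was the same kind of cell without deletion, with no collection day given. Both groups carried the floxed Dicer alleles and were grown in standard embryonic stem cell conditions. The labels also name wild-type E14 cells given tamoxifen, but the values used here hold no array of them. Tamoxifen and Dicer loss therefore cannot be told apart. The labels do not say which recombinase line or clone was used, or whether replicates were separate cultures. The p-values therefore rest on the spread between samples that may be technical repeats.

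Before gastrulation the epiblast passes from a naive state to a primed state that is ready to form the germ layers. Embryonic stem cells mostly hold the naive state, and cells on their way out of it switch on Fgf5, Otx2 and Pou3f1, while the core factor Pou5f1 stays on in both states. Dicer cuts hairpin precursors into mature microRNAs, and the microRNAs of embryonic stem cells are known to take part in the passage out of the naive state. The comparison asks whether the primed markers differ once Dicer has been deleted.

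Deletion was visible on the arrays. Dicer1 had a signal of 9.57 ± 0.11 in tamoxifen cells and 11.42 ± 0.06 in untreated cells (log2, SD, n = 3 each), a log2 change of -1.85 ± 0.07 (SE) with a limma adjusted p of 3.61e-05. The embryonic stem cell factors were bright in both groups: Pou5f1 averaged 12.86 in tamoxifen and 12.98 in untreated cells, Sox2 13.07 and 13.01, and Nanog 13.38 and 13.32. Arrays of 1 group correlated across genes at 0.996 to 0.998, and arrays of different groups at 0.993 to 0.996. Of all genes, 7.78% were called at an adjusted p under 0.05 by limma, 3.79% higher and 3.99% lower in tamoxifen cells.

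None of the 8 primed markers was called. An unadjusted limma p under 0.05 was reached by 3, Sfrp2, Tead2 and Fgf15, all higher in tamoxifen cells, where 24.5% of all genes passed that p and 11.5% passed it with higher signal. In these same 3 genes every tamoxifen array lay above every untreated array, as it did for 14.5% of all genes, and no marker lay wholly below, against 14.8% of all genes. The changes of the 8 ran from -0.09 to 0.21 on the log2 scale with a median of 0.12, beside a median of 0.01 over all genes. Of the 8 values 6 were above 0, as were 53.2% of all genes. For comparison, the smallest change that was called in any gene had a size of 0.22 and the median called change a size of 0.40. RMA, the array summary used, compresses changes of dim probe sets, and a bulk measurement cannot tell fewer cells in a state from less RNA per cell.

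**Figure D1:**
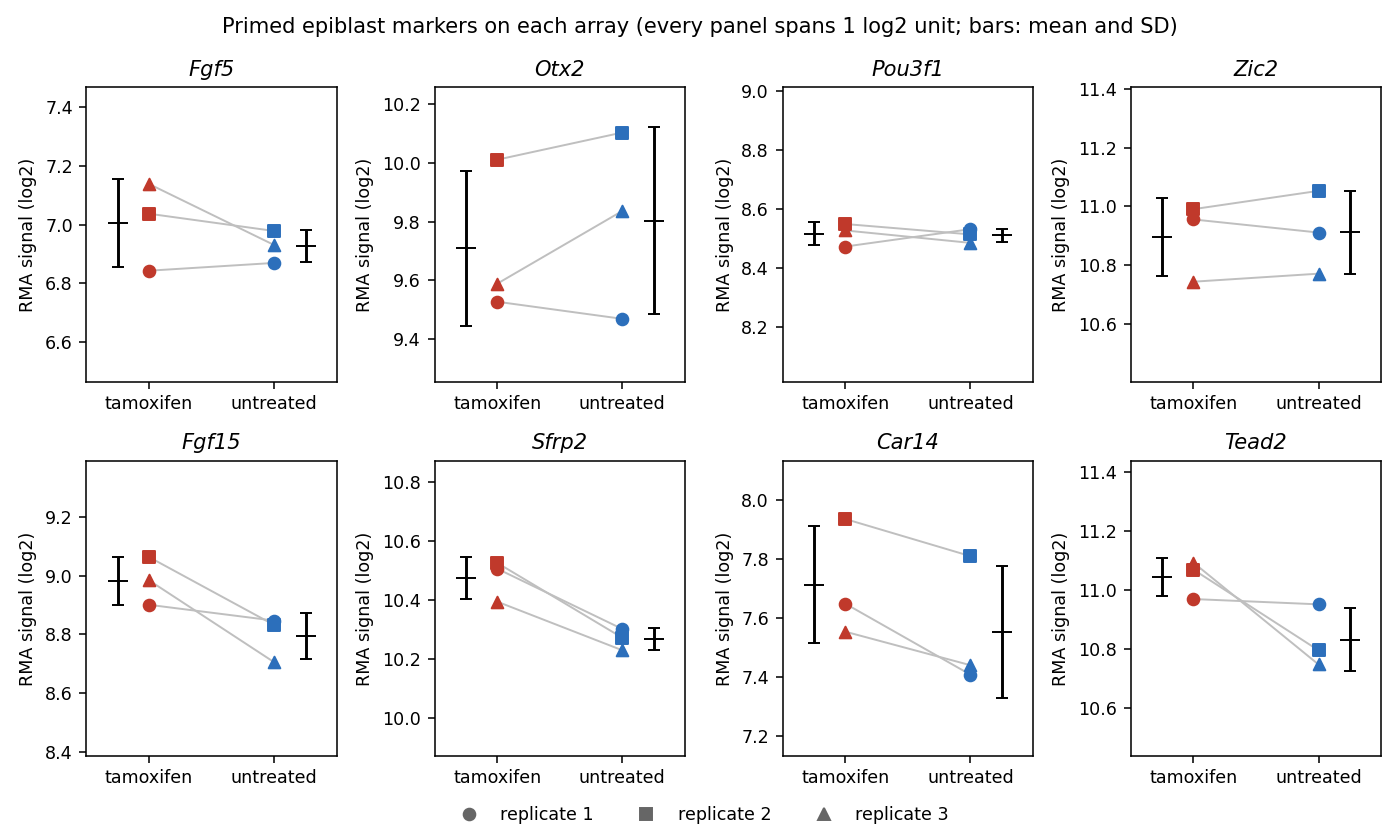
Signal of each primed marker on each of the 6 arrays (RMA, log2), tamoxifen on the left and untreated on the right, with grey lines joining samples of the same replicate number and bars giving the mean and SD (n = 3). Fgf15, Sfrp2 and Tead2 have 3 tamoxifen arrays above all untreated ones, while Fgf5, Otx2, Pou3f1, Zic2 and Car14 spread more between replicates than between groups.

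The transcription factors that mark the primed state come first. Otx2, a homeobox factor that helps embryonic stem cells leave the naive state, had signals of 9.53, 10.01 and 9.59 in tamoxifen replicates 1, 2 and 3, against 9.47, 10.10 and 9.84 in untreated replicates 1, 2 and 3. Its change was -0.09 ± 0.17 (log2, SE; limma adjusted p = 0.779). The groups overlapped fully, and Otx2 had the widest spread of the 8, with an SD of 0.26 in tamoxifen and 0.32 in untreated cells. Replicate 2 was highest and replicate 1 lowest in both groups, so Otx2 kept the same order of replicates in both groups.

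Pou3f1, also known as Oct6, is a POU-domain factor of the epiblast and of early neural cells. It had 8.47, 8.55 and 8.53 in tamoxifen cells, against 8.53, 8.51 and 8.48 in untreated cells. This was the tightest of the 8 genes, with SDs of 0.04 and 0.02 and a change of 0.01 ± 0.06 (limma adjusted p = 0.965). Its 95% interval, -0.13 to 0.14 on the log2 scale, corresponds to 0.917-fold to 1.10-fold of the untreated level.

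Zic2, a zinc-finger factor that binds enhancers in pluripotent cells, had 10.96, 10.99 and 10.74 in tamoxifen cells, against 10.91, 11.05 and 10.77 in untreated cells. Both groups were lowest in replicate 3 and highest in replicate 2. The change was -0.015 on the log2 scale, with an SE of 0.09 and a limma adjusted p of 0.944. Its relatives Zic1, Zic4 and Zic5 had changes of 0.01 ± 0.08, 0.03 ± 0.07 and -0.07 ± 0.07, none of them called.

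Tead2 is a TEAD-family factor of the early embryo, and TEAD proteins are the DNA-binding partners of the Hippo effectors YAP and TAZ. It had 10.97, 11.07 and 11.09 in tamoxifen cells, against 10.95, 10.80 and 10.75 in untreated cells. All tamoxifen arrays were above all untreated ones, but tamoxifen replicate 1 exceeded untreated replicate 1 by only 0.018, where pairs 2 and 3 differed by 0.27 and 0.35. The change was 0.21 ± 0.07 (limma adjusted p = 0.117), or 1.16-fold with a 95% interval of 1.03 to 1.30.

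Of the secreted factors, Fgf5 is the textbook marker of the primed epiblast. It had 6.84, 7.04 and 7.14 in tamoxifen cells, against 6.87, 6.98 and 6.93 in untreated cells. The lowest array of all 6 and the highest were both tamoxifen arrays, so the groups overlapped. The change was 0.08 ± 0.08 (limma adjusted p = 0.604), and its 95% interval reached from 0.927-fold to 1.20-fold. With 38.5% of genes at or below its mean signal, Fgf5 was the dimmest of the 8 probe sets, which gives the brightness of its probes and not its abundance.

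Fgf15, an FGF ligand of the early embryo whose later role is as a hormone of bile acid control, had 8.90, 9.06 and 8.98 in tamoxifen cells, against 8.85, 8.83 and 8.71 in untreated cells. The groups did not overlap, with a gap of 0.054 between the lowest tamoxifen and the highest untreated array. The change was 0.19 ± 0.07 (limma adjusted p = 0.142), or 1.14-fold with a 95% interval of 1.02 to 1.27.

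Sfrp2, a secreted frizzled-related protein that binds WNT ligands, had the smallest p of the 8. It had 10.51, 10.53 and 10.39 in tamoxifen cells, against 10.30, 10.27 and 10.23 in untreated cells. The gap between the groups was 0.093, the widest of the 3 genes without overlap. The change was 0.21 ± 0.06 (limma adjusted p = 0.0823), or 1.16-fold with a 95% interval of 1.05 to 1.28.

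The last marker is an enzyme. Car14, a membrane-bound carbonic anhydrase, had 7.65, 7.94 and 7.55 in tamoxifen cells, against 7.41, 7.81 and 7.44 in untreated cells. The groups overlapped because replicate 2 was high in both, yet within each replicate number the tamoxifen array was the higher, by 0.24, 0.13 and 0.11. The change was 0.16 ± 0.13 (limma adjusted p = 0.491). The interval of Car14 reached from 0.912-fold to 1.37-fold, the highest upper bound among the 8.

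Replicate numbers mattered for some of these genes. Replicate 2 was the highest of its group in both groups for 3 of the 8, Otx2, Zic2 and Car14, which was so for 13.9% of all genes. Deviations from the group means correlated at 0.356, 0.345 and 0.389 between arrays of numbers 1, 2 and 3. The labels state no pairing, so the numbers were taken to pair the samples only in an alternative fit. Calls described here come from the fit without pairing unless another fit is named. Within the 3 pairs 4 markers, Fgf15, Sfrp2, Car14 and Tead2, were higher in tamoxifen cells each time, and this was so for 25.7% of all genes. With the replicate number as a block in limma, 1 of the 8 was called, Sfrp2 (0.21 ± 0.06, adjusted p = 0.0409), where 7.87% of all genes were called higher. The other adjusted p-values in the blocked fit ran from 0.0859 for Fgf15 to 0.959 for Pou3f1. Car14 had the largest drop in SE apart from Otx2, to 0.06 with the block, and an adjusted p of 0.103. The SE did not drop for Pou3f1 (0.0579 without and 0.0581 with the block) or Tead2 (0.0737 and 0.0744).

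**Figure D2:**
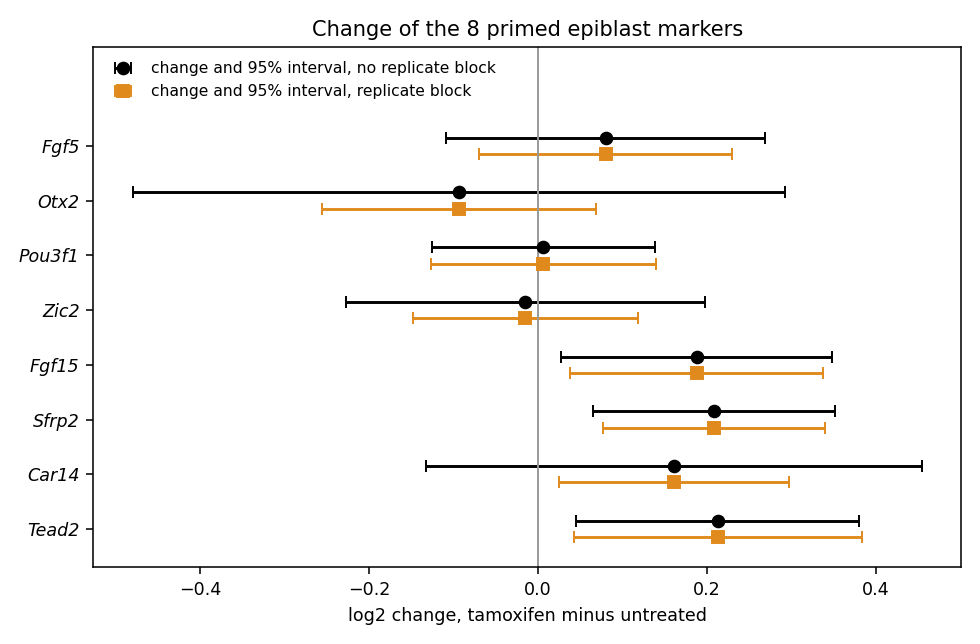
Log2 change of each primed marker, tamoxifen minus untreated (x axis), with its 95% interval from limma without the block (black) and with the replicate block (orange). The intervals of Fgf15, Sfrp2 and Tead2 lie above 0 in both fits, that of Car14 only with the block, and those of Fgf5, Otx2, Pou3f1 and Zic2 cross 0 in both.

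The promoters of the markers were searched for the motifs that marker-encoded factors are known to bind. RefSeq start sites (build GRCm38.p6) matched 5 of the 8 genes, Fgf5, Otx2, Sfrp2, Car14 and Tead2, with 8 starts in all, 4 of them of Otx2. The 250 bases before each start were read on both strands for the octamer ATGCAAAT of POU factors, the bicoid-type core GGATTA of OTX factors and the MCAT element GGAATG of TEAD factors. No motif contains another. The windows of Sfrp2, Car14 and Otx2 starts 2, 3 and 4 overlapped the annotated span of the same gene. Those of Fgf5, Tead2 and Otx2 start 1 overlapped no annotated gene. Over 32851 RefSeq windows of the same length, 1.60% held the octamer, 6.25% the bicoid-type core and 12.6% the MCAT element. Sfrp2 held an octamer 47 to 40 bases and a bicoid-type core 96 to 91 bases before its start, and Car14 held a bicoid-type core and an MCAT element. Of the Otx2 starts 1 held a bicoid-type core, and the windows of Fgf5 and Tead2 held none of these letters. The stretches of 30 bases around the matches in Sfrp2 and Car14 are shown because these are the markers with more than 1 match, written 5′ to 3′ on the strand of the gene with the match in capitals.
Sfrp2, octamer (chr3:83766263-83766292, plus strand): tccacctccagATTTGCATaaaaaaggcca
Sfrp2, bicoid-type core (chr3:83766213-83766242, plus strand): accggcctcctcGGATTActccggtttggc
Car14, bicoid-type core (chr3:95904729-95904758, minus strand): atcctgcatgccTAATCCgctatttaagga
Car14, MCAT element (chr3:95904900-95904929, minus strand): tcctcaggcaggGGAATGagaacacggtgt
The Sfrp2 octamer and the Car14 bicoid-type core read as the reverse complement on the strand of the gene. Such matches describe the letters of the window and show no binding. Otx2, Pou3f1 and Tead2, the markers whose families bind these motifs, were themselves not called.

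Family relatives of the markers were then read from a list of 23 genes, of which 22 were measured. Of these 4 rose, 0 fell and 18 were not called, where 3.79% of all genes were called higher and 3.99% lower. The median change was 0.06, and the blocked fit called 4 higher and 2 lower, beside 7.87% and 9.54% of all genes. Among the secreted frizzled-related proteins, which bind WNT ligands outside the cell, both Sfrp1 and Sfrp4 rose while Sfrp2 was not called. Sfrp1 had 12.73, 12.48 and 12.46 in tamoxifen cells, against 12.31, 12.10 and 12.04 in untreated cells (0.41 ± 0.10, limma adjusted p = 0.0389). Sfrp4 had 8.83, 8.87 and 8.83 in tamoxifen cells, against 8.39, 8.61 and 8.38 in untreated cells (0.39 ± 0.08, limma adjusted p = 0.0202). Sfrp5 and Frzb had changes of 0.00 ± 0.09 and 0.06 ± 0.07. Whether Sfrp2 differs from Sfrp1 or Sfrp4 in its change was not tested. Sfrp1 was called in 1 of 6 fits that each left out 1 array, only the one without untreated replicate 1, and its adjusted p reached 0.126. Sfrp4 was called in 3 of 6, and not without tamoxifen replicate 2, tamoxifen replicate 3 or untreated replicate 3 (adjusted p up to 0.0865).

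The carbonic anhydrases of the list had values on both sides of Car14. Car12, a membrane-bound enzyme like Car14, had 9.17, 8.86 and 9.20 in tamoxifen cells, against 8.59, 8.19 and 8.33 in untreated cells, and rose by 0.71 ± 0.12 (limma adjusted p = 0.0133). The cytosolic Car2 rose by 0.58 ± 0.13 (limma adjusted p = 0.0308). Car4, which is anchored to the outer membrane, had a change of -0.55 ± 0.18 that was not called (0.0959, and 0.00391 with the replicate block), and Car9 one of -0.06 ± 0.10. Car12 lost its call without tamoxifen replicate 3 or untreated replicate 2 (adjusted p up to 0.0541), and Car2 kept its call only without tamoxifen replicate 1 or untreated replicate 3 (up to 0.112 otherwise). Of the other TEAD factors Tead1, Tead3 and Tead4 had changes of 0.02 to 0.07, and of the POU relatives Pou3f2, Pou3f3 and Pou3f4 had changes of 0.11 to 0.12, none of them called.

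**Figure D3:**
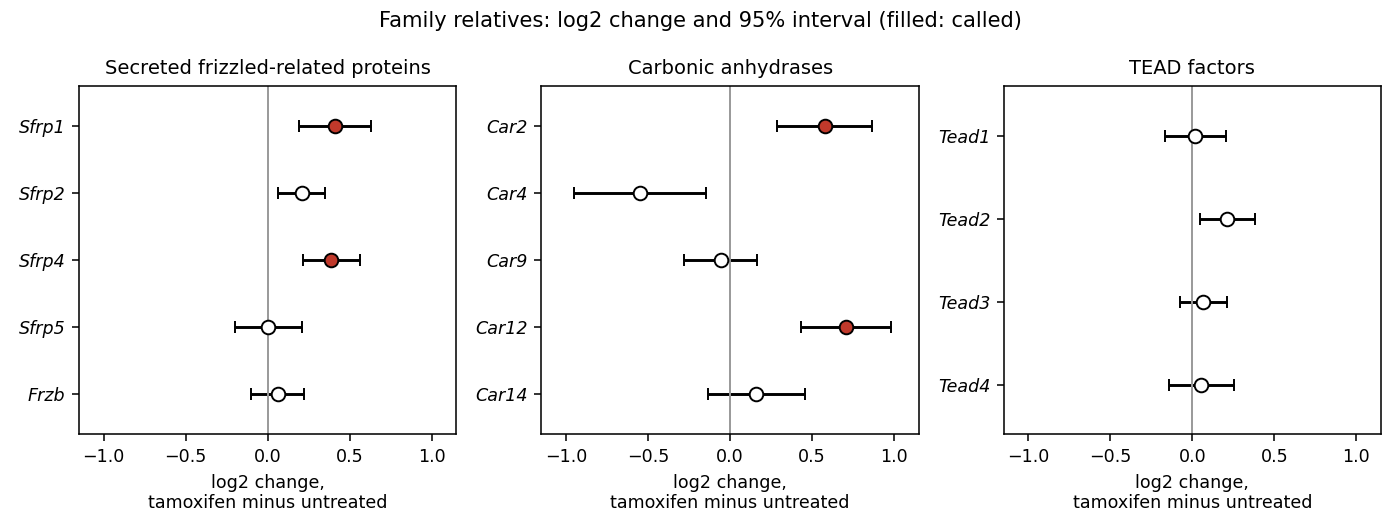
Log2 change and 95% interval, tamoxifen minus untreated, in 3 families that hold a primed marker; filled points were called. Sfrp1, Sfrp4, Car2 and Car12 are filled and lie above 0, while the markers Sfrp2, Car14 and Tead2 are open.

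Other genes of the formative and primed states had values on both sides of 0. Of 18 listed 17 were measured, and 1 rose, 1 fell and 15 were not called, with a median change of 0.06. Over all genes 3.79% were called higher and 3.99% lower. Nodal, the ligand that maintains the primed epiblast, rose by 0.42 ± 0.06 (limma adjusted p = 0.00664). Grhl2, a factor that opens enhancers of epithelial genes as the primed state forms, had 8.51, 8.58 and 8.54 in tamoxifen cells, against 8.79, 9.05 and 8.96 in untreated cells, and fell by 0.39 ± 0.08 (limma adjusted p = 0.0208). Grhl2 was called in 2 of the 6 fits without 1 array, those without replicate 1 of either group, and its adjusted p was at most 0.0759 in the others. The de novo methyltransferase Dnmt3b had a change of -0.42 ± 0.20 that was not called (adjusted p = 0.232) and passed with the replicate block (0.00293). With the block 4 of the 17 rose and 4 fell, where it called 7.87% of all genes higher and 9.54% lower. Those that rose were Nodal, Sall2 (0.41), Trh (0.41) and Sox4 (0.31). Those that fell were Grhl2, Dnmt3b, Pim2 (-0.29) and Utf1 (-0.26). Sall2, Trh, Sox4, Pim2 and Utf1 were not called without the block.

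Naive genes were read for the opposite side of the transition. Of 17 measured 2 rose, 0 fell and 15 were not called, beside 3.79% of all genes called higher and 3.99% lower. The list's median was 0.06. The genes that rose were Klf2 (0.58 ± 0.09, limma adjusted p = 0.00903) and Prdm14, a repressor of the primed programme, which rose by 0.41 ± 0.09 (limma adjusted p = 0.0281). Prdm14 kept its call only in the fit without tamoxifen replicate 3, with adjusted p-values up to 0.0998 in the other fits without 1 array. At an unadjusted limma p under 0.05, 4 of the 17 were higher and 2 lower, beside 24.5% of all genes. The uncalled among them went both ways. Tfcp2l1 and Fbxo15 had values of 0.20 ± 0.06 (adjusted p = 0.0873) and 0.19 ± 0.07 (adjusted p = 0.108). Zfp42, a naive marker, and Fgf4, the FGF ligand of embryonic stem cells, had values of -0.19 ± 0.06 (adjusted p = 0.0876) and -0.32 ± 0.10 (adjusted p = 0.103). With the block Fgf4 passed (0.00835), and Zfp42, Tfcp2l1 and Fbxo15 did not (0.0604, 0.0547 and 0.0771). Among 9 measured primitive streak genes Gsc rose by 0.32 ± 0.08 (limma adjusted p = 0.042), and 8 were not called. Gsc was called in 2 of the 6 fits without 1 array, those without replicate 1 of either group (up to 0.157 in the others). Eomes of the streak list had a change of -0.57 ± 0.23 that was not called (limma adjusted p = 0.174) and passed with the block (0.00745). Among 8 core pluripotency genes 1 rose, Gdf3 (0.55 ± 0.08, limma adjusted p = 0.00824). Lin28a and Tdgf1 of the core list had changes of -0.30 ± 0.08 and -0.24 ± 0.08, with every tamoxifen array below every untreated one. Neither was called (limma adjusted p = 0.0552 and 0.0912), and both passed with the block (0.0133 and 0.0326). The streak and core counts stand beside the same 3.79% and 3.99% of all genes. With the block 1 streak gene rose and 1 fell, and 1 core gene rose and 2 fell. The blocked fit called 7.87% of all genes higher and 9.54% lower.

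**Figure D4:**
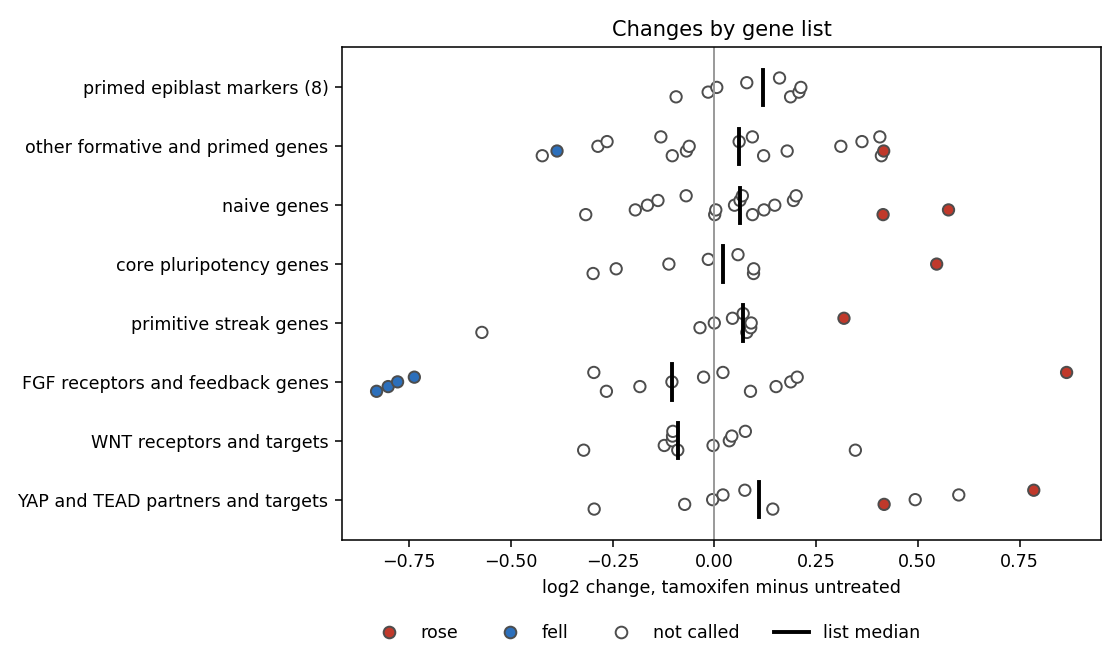
Log2 change, tamoxifen minus untreated (x axis), of every measured gene in 8 lists; red points rose, blue points fell, open points were not called and black lines are list medians. The 8 primed markers span -0.09 to 0.21 and are all open, whereas the FGF list holds 4 genes that fell and 1 that rose.

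The pathways in which the secreted markers and Tead2 act were described in the same way. Of 15 measured FGF receptors, adaptors and feedback genes 1 rose, 4 fell and 10 were not called, beside 3.79% of all genes called higher and 3.99% lower. The list's median was -0.10, and the blocked fit called 1 higher and 6 lower, beside 7.87% and 9.54% of all genes. The receptor Fgfr2 had 9.03, 9.38 and 9.42 in tamoxifen cells, against 8.37, 8.33 and 8.54 in untreated cells, and rose by 0.87 ± 0.11 (limma adjusted p = 0.00499). Spry1, an inhibitor that ERK signalling switches on, had 9.36, 9.19 and 9.21 in tamoxifen cells, against 9.998, 10.08 and 10.09 in untreated cells, and fell by 0.80 ± 0.07 (limma adjusted p = 0.00107). The phosphatase gene Dusp4 fell by 0.78 ± 0.11, Spry4 by 0.74 ± 0.12 and the ETS factor Etv4 by 0.83 ± 0.14 (limma adjusted p = 0.00664, 0.0112 and 0.0122). All 5 were called whichever array was left out. The FGF ligands Fgf5 and Fgf15 were uncalled beside the larger changes of these 5 genes. Other genes of the list were also uncalled. The feedback genes Spry2, Dusp6 and Etv5 had changes of -0.30 ± 0.08, -0.265 ± 0.12 and 0.09 ± 0.07. With the block Spry2 and Dusp6 passed (limma adjusted p = 0.0268 and 0.0224), and Etv5 did not (0.342). The receptor genes Fgfr1, Fgfr3, Fgfr4 and Fgfrl1 had changes of 0.15, -0.03, -0.18 and 0.02.

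For Sfrp2, the list of WNT receptors and targets held 11 measured genes, with a median of -0.09. Of these 0 were called by limma, beside 7.78% of all genes. An unadjusted limma p under 0.05 was reached by 2, 1 in each direction, beside 24.5% of all genes. Those were Sp5 (0.35 ± 0.10, adjusted p = 0.0654) and Axin2 (-0.32 ± 0.11, adjusted p = 0.103), both direct targets of WNT signalling, and with the block both passed (0.0183 and 0.017). For Tead2, 10 partners and targets were measured, with a median of 0.11. Of these 2 rose and 8 were not called, beside 3.79% of all genes called higher and 3.99% lower. Vgll4, which competes with YAP for TEAD proteins, rose by 0.42 ± 0.08 (limma adjusted p = 0.0157), and the Hippo kinase Lats2 by 0.78 ± 0.15 (limma adjusted p = 0.0199). Vgll4 lost its call without tamoxifen replicate 2 or 3 (up to 0.065), and Lats2 without those or untreated replicates 2 or 3 (up to 0.0777). The YAP targets Ccn2 and Ccn1 (formerly Ctgf and Cyr61) had changes of 0.60 ± 0.20 and 0.49 ± 0.19 that were not called (adjusted p = 0.101 and 0.154) and passed with the replicate block (0.00252 and 0.0226). Wwtr1, which encodes TAZ, had a change of -0.30 ± 0.10 (limma adjusted p = 0.12, and 0.015 with the block). Amotl2, Ankrd1 and Axl of the same list had changes of 0.14, -0.004 and 0.02 and passed in neither fit. The blocked fit called 4 of the list higher and 1 lower, beside 7.87% and 9.54% of all genes. Of the 17 genes called in these lists 12 lost the call when every probe set of the table was fitted, and Nodal, Gdf3, Fgfr2, Spry1 and Dusp4 kept it.

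Markers of other cell types were set beside the 3 genes without overlap, since Sfrp2 is also expressed by mesenchymal and neural cells. None of these lists had a gene called by limma without the block, and their counts at an unadjusted p under 0.05 stand beside 24.5% of all genes. The mean log2 signal of 9 measured neurectoderm markers was 7.556 to 7.684 in tamoxifen arrays, against 7.493 to 7.551 in untreated arrays. The groups thus only just missed overlapping. Of the 9, 3 were higher and 1 lower at that unadjusted p. The neuronal tubulin gene Tubb3 had a change of 0.52 ± 0.19 (adjusted p = 0.13, and 0.00204 in the blocked fit) and the neural factor Sox1 one of 0.29 ± 0.09 (0.0835, and 0.0211 in the blocked fit). Pax3 (0.18 ± 0.08) and Map2 (-0.18 ± 0.06) passed in neither fit. The other measured markers, Pax6, Nes, Hes5, Zic1 and Neurog2, had changes of -0.01 to 0.08 and also passed in neither fit. For 9 fibroblast markers the mean was 7.975 to 8.073 in tamoxifen arrays, against 7.801 to 7.976 in untreated arrays, with 1 higher and 1 lower at the unadjusted p. Vim, an intermediate filament gene that embryonic stem cells also express, had a change of 0.60 ± 0.17 (adjusted p = 0.0619, and 0.00386 in the blocked fit), and Thy1 one of -0.32 ± 0.11 (0.0985, and 0.00725 in the blocked fit).

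The means of 10 primitive endoderm markers (7.69 to 7.85 in tamoxifen, 7.64 to 7.96 in untreated arrays) and 9 trophoblast markers (7.83 to 8.10 in tamoxifen, 7.86 to 7.93 in untreated arrays) overlapped between the groups, with 3 genes of each list at an unadjusted p under 0.05. The endoderm genes Pdgfra and Sox7 had changes of 0.36 ± 0.09 and -0.28 ± 0.08 (adjusted p = 0.0518 and 0.0603, or 0.018 and 0.041 with the block). The trophoblast genes Tfap2c and Ascl2 had changes of 0.27 ± 0.08 and -0.52 ± 0.18 (adjusted p = 0.0804 and 0.107, or 0.0258 and 0.0106 with the block). With the block 2 neurectoderm markers rose and 0 fell, while 1 fibroblast, 1 endoderm and 1 trophoblast marker rose and 1, 2 and 1 fell. The same fit called 7.87% of all genes higher and 9.54% lower. The part of other cell types in the values of Fgf15, Sfrp2 and Tead2 was not tested.

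The 2 genes whose signals followed each marker most closely over the 6 arrays were found by Pearson correlation among all genes. The correlations ran from 0.979 to 0.998, which 6 points shared by 19938 genes readily give, and they serve as a description. Cdh18 and Krtap5-1 were closest to Sfrp2 (0.998 and 0.996), Gpihbp1 and Aqp9 to Tead2 (0.998 and 0.997), and Adamts7 and Tnni2 to Fgf15 (0.995 and 0.994). For Otx2 they were 1300017J02Rik and Uros, for Pou3f1 Srpx and Mymk, for Zic2 Rundc3b and Nxpe5, for Car14 Olfr975 and Dctn1, and for Fgf5 the olfactory receptor genes Olfr702 and Olfr1510. No marker was among the nearest 2 of another, and of the 16 genes only Krtap5-1 was called (0.44 ± 0.08, limma adjusted p = 0.0173).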

How the data were processed

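The deposited log2 intensities were made by the authors with RMA (background correction, quantile normalisation, probe summary) in Expression Console 1.2 of Affymetrix, per the submitters' processing notes. Quantile normalisation would hide a change shared by most transcripts. The log2 scale was judged from the range of the values, 3.18 to 14.6. The genome build of the array annotation is not given in the sources used here. Of 35556 probe sets, 21789 had exactly 1 symbol, and the brightest per gene gave 19938 genes. Groups were compared with limma (version 3.58.1, R 4.3.3; lmFit and eBayes, two-sided, Benjamini-Hochberg over all genes, no filter on dim genes) and called at an adjusted p under 0.05. With 3 arrays against 3 an exact permutation test cannot go below p = 0.1. The fit was tested on simulated data, where it called 60% of genes given a log2 change of 0.5 and 95% of those given 1. Changes as small as those of the markers were not simulated. The main fit had no replicate block. For the blocked fit, replicate numbers were taken to pair samples because deviations of all same-numbered arrays correlated above 0.1, a pairing the labels do not state.

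Named are the 8 markers, Dicer1, up to 2 called genes per direction of each list (or the 2 smallest p-values), and the 2 nearest profiles. Other genes, among them Sox2, Nanog, Pou5f1, Dnmt3b, Spry4, Etv4 and further family relatives, were added after their values were seen. Members and lists were chosen with earlier results of these data known. Promoter sequences are RefSeq's. The number of arrays limits the precision.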

Additional observations from a re-analysis of the deposited data

How the results depend on the processing

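Of the 8 primed markers 0 were called by limma (3 at an unadjusted p under 0.05), and 0 in each of the 6 fits that left out 1 array. With the replicate block 1 was called (Sfrp2), with array weights 1 (Tead2, adjusted p = 0.0437) and after cyclic loess, an alternative chosen after seeing the data, 1 (Sfrp2, 0.045). The cause of these gains was not tested. Fgf5, Fgf15, Sfrp2, Car14 and Tead2 stayed above 0 in every setting run; Fgf5 is not among the genes tested without the dimmest 40%. Values near 0 changed sign: Pou3f1 with median centring (-0.00057), and Zic2 with renewed quantile normalisation (0.0117) and cyclic loess (0.026). Without 1 array Otx2 ran from -0.26 to 0.056 (highest without untreated replicate 2), Pou3f1 from -0.0102 to 0.028 and Zic2 from -0.0851 to 0.0613. Dicer1 was called in all settings. The count of all genes called was 1552, 3472 with the replicate block, 2511 with array weights, 336 over every probe set of the table and 276 at an adjusted p under 0.01. Without 1 array it ran from 355 to 1580, being 355 and 539 without tamoxifen replicates 2 and 3, and 516 and 908 without untreated replicates 2 and 3. The replicate block changed no other marker's call. Depth is not defined for arrays, and RMA gives no detection call.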
